A study of Mus musculus with 2 samples.

Results

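The S100 proteins are small calcium-binding proteins, and 10 genes of this family were followed in RNA-seq of the mouse optic nerve, among 23951 gene symbols listed in both libraries. They were *S100a1*, *S100a4*, *S100a6*, *S100a8*, *S100a9*, *S100a10*, *S100a11*, *S100a13*, *S100a16* and *S100b*. The family was chosen by the higher level of *S100a11* in the mutant library, that is, from the same contrast that is described here. All values below are therefore a description, and no test was made of them. The study asked which genes depend on Tcf7l2, a transcription factor of the Wnt pathway, while oligodendrocytes (OLs, the myelinating cells of the central nervous system) mature. Optic nerves were taken at P12 (postnatal day 12) from control mice of genotype Tcf7l2 c/+; OLig1-cre (1 library) and from *Tcf7l2*ΔHMG mice of genotype Tcf7l2 c/c; OLig1-cre (1 library). Both groups thus carried Olig1-Cre, a Cre recombinase driven from the OL lineage gene *Olig1*, and the controls also carried 1 floxed allele. Recombination removes the exon that encodes the DNA-binding HMG box only in cells that expressed the Cre, so that the other cells of the nerve keep the gene. The number of animals behind each library is not given in the sources used here.

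Most S100 proteins have a pair of EF-hand loops that bind calcium, and most work as dimers that change shape with calcium and then dock onto a partner protein. Inside cells many partners are annexins, proteins that bind membranes in the presence of calcium, or parts of the cytoskeleton. Some S100 proteins are also released and signal to other cells, for example through the receptor RAGE, encoded by *Ager*. In nervous tissue S100b is best known from astrocytes and is also made in the OL lineage, whereas S100a8 and S100a9 form calprotectin, an abundant protein of neutrophils.

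Expression was read as FPKM, the fragment count of a gene scaled for transcript length and library depth, so that levels of genes of different lengths can be compared. Differences are given as the log2 ratio of mutant over control after 0.1 FPKM was added to both, a scale that understates the change of low genes. Genes were counted as higher or lower past a fold change of 1.5. All 10 members reached 1 FPKM in at least 1 library and so belonged to the 14199 genes compared with the cutoff, called tested genes here. The depth read from the tables was 27624000 fragments for control and 39938000 for mutant nerve, and 3 fragments on 1 kb correspond to 0.109 and 0.0751 FPKM. *Tcf7l2* itself was at 17.8 FPKM in control and 14.6 FPKM in mutant nerve, which does not check the deletion, since a transcript without the HMG box exon is still counted. The nerve showed the astrocyte marker *Gfap* (4059 and 4729 FPKM) and the myelin gene *Mag* (1369 and 627 FPKM), whereas the neuronal marker *Snap25* was at 5.92 and 10.3 FPKM. With 1 library per genotype there is no measure of variation between animals. The confidence interval that Cufflinks gives for each value covers only error within a library, and 4 of the 10 members had an FPKM outside that interval in at least 1 library (2 in the control and 4 in the mutant). Over all named rows this was so for 7.26% in the control and 8.64% in the mutant.

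Promoters are shown for 3 members, *S100a11*, whose level chose the family, *S100a4*, the member that was lower past 1.5-fold, and *S100a8*, one of the calprotectin pair. Each sequence is the 250 bases before the annotated start in RefSeq (build GRCm38.p6), plus strand, at chr3:93520246-93520495, chr3:90603520-90603769 and chr3:90668821-90669070, in that order. Capitals mark CTTTGA, the reverse complement of the core TCF/LEF letters TCAAAG, in *S100a11*, and the TATA box letters TATAAA in the other two.
S100a11: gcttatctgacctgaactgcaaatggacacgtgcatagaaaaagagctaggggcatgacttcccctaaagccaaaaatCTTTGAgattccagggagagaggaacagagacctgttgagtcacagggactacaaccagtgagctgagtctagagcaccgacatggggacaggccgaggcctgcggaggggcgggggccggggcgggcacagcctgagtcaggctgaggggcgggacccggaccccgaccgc
S100a4: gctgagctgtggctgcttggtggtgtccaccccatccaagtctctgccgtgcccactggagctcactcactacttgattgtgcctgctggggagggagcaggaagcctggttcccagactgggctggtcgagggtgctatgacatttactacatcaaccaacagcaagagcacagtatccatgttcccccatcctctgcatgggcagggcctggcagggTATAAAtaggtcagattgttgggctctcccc
S100a8: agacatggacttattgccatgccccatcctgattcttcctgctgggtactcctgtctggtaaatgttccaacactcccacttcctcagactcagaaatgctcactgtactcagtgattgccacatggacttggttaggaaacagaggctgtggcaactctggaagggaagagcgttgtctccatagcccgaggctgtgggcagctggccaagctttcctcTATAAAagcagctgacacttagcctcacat
TCAAAG was searched on both strands from 250 bases before to 50 bases after the start in the 9 members with a RefSeq entry. It was found in 1 of them, *S100a11*, where it begins 172 bases before the start, and in 16% of 32851 promoters of this length. TATAAA, searched in the same way, was found in 3 of these 9 members and in 13.6% of all promoters. It begins 31 bases before the start of *S100a4* and 30 bases before that of *S100a8*, and in *S100a9* it is not in the bases before the start. A match to these letters is a description of the sequence and not of binding.

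The family fell into 8 members of high level and 2 of low level. *S100a6* was the highest in both libraries, with 538 FPKM in control and 775 FPKM in mutant nerve. The 8 high members were each above 100 FPKM in both libraries, where the median tested gene had 9.62 and 9.96 FPKM. Even *S100a13*, the lowest of the 8, was at or above 95.3% of tested genes in the control. *S100a8* and *S100a9* were below 5 FPKM in both libraries. The summed level of the 10 members was 2181 FPKM in control and 2612 FPKM in mutant nerve.

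**Figure D1:**
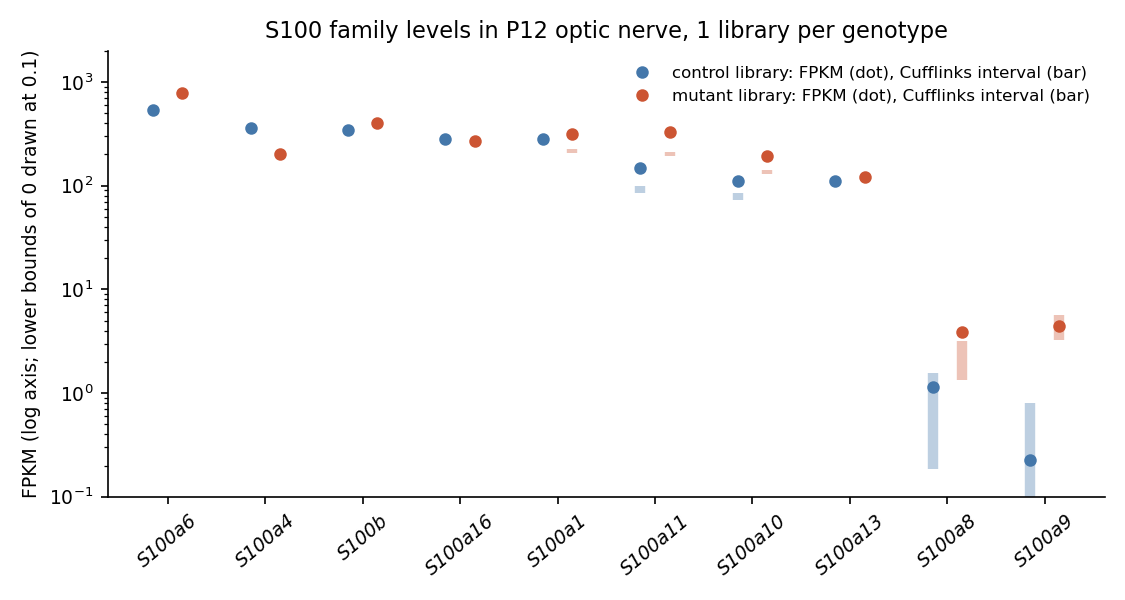
FPKM (log axis) of the 10 S100 members in the control (blue) and *Tcf7l2*ΔHMG (orange) library, with dots for the FPKM and bars for the Cufflinks interval (a lower bound of 0 is drawn at 0.1). The 8 members on the left lie above 100 FPKM in both libraries, *S100a8* and *S100a9* below 5, and the dots of *S100a10* and *S100a11* lie above their bars in both libraries.

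The order of the high members differed between the libraries. In the control *S100a6* was followed by *S100a4* (357 FPKM), *S100b* (347), *S100a16* (284) and *S100a1* (283), and then by *S100a11* (148), *S100a10* (111) and *S100a13* (111). Of adjacent pairs in this order, *S100a4* and *S100b*, *S100a16* and *S100a1*, and *S100a11* and *S100a10* had overlapping intervals, so that they do not differ beyond that spread. *S100a10* and *S100a13* had nearly the same FPKM but intervals that lay apart, since the FPKM of *S100a10* was above its own interval. In the mutant *S100a6* was followed by *S100b* (402 FPKM), *S100a11* (332), *S100a1* (313), *S100a16* (267), *S100a4* (200.1), *S100a10* (195) and *S100a13* (120.3). Here only *S100a11* and *S100a1* overlapped among adjacent pairs. Beyond adjacent places, the interval of *S100a4* (190.4 to 211.2) overlapped those of *S100a11* (192.5 to 209.3) and *S100a1* (208.3 to 223.6). *S100a16* had a lower FPKM than *S100a11* and *S100a1* but an interval (261.6 to 276.8) above theirs. The mutant order of these members is thus not resolved. By FPKM *S100a4* was at place 2 in the control and 6 in the mutant, also by interval midpoints. In the mutant its midpoint (200.8) was close to that of *S100a11* (200.9). *S100a11* was at place 6 and 3 by FPKM, but at 7 and 5 by midpoints.

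Across the family 8 members had a higher and 2 a lower value in the mutant library. Of the 14199 tested genes 7747 had a higher and 6452 a lower value, which is also the background for direction counts of tested genes below. Past a fold change of 1.5, 4 members were higher (*S100a8*, *S100a9*, *S100a10* and *S100a11*), where 15.4% of all tested genes were. Of these, *S100a9* reached 1 FPKM only in the mutant. In the other direction 1 member was lower (*S100a4*), where 8.52% of tested genes were. Both shares are also the background for counts of listed genes past 1.5-fold below. Nothing is read from these shares, since *S100a11* in this contrast chose the family. The median log2 ratio was 0.37 over the members and 0.05 over all tested genes, of which 90% lay between −0.83 and 1.18. Non-overlapping intervals were seen for 8 of the 10 members, all but *S100a8* and *S100a13*, and for 52.4% of tested genes. This share was not computed for genes at the level of the high members. For *S100a1* the mutant interval lay below the control one, although its mutant FPKM was higher. Of all genes past the cutoff 64.4% were higher in the mutant, but only 7.96% were when all rows, unnamed ones included, were rescaled to a common sum, which moved the median log2 ratio of all tested genes to −0.61. Under that scaling *S100a1*, *S100a6*, *S100a13* and *S100b* changed sign (log2 ratios of −0.53, −0.14, −0.56 and −0.46), *S100a16* passed 1.5-fold lower (−0.76), and directions given below hold relative to the other genes.

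**Figure D2:**
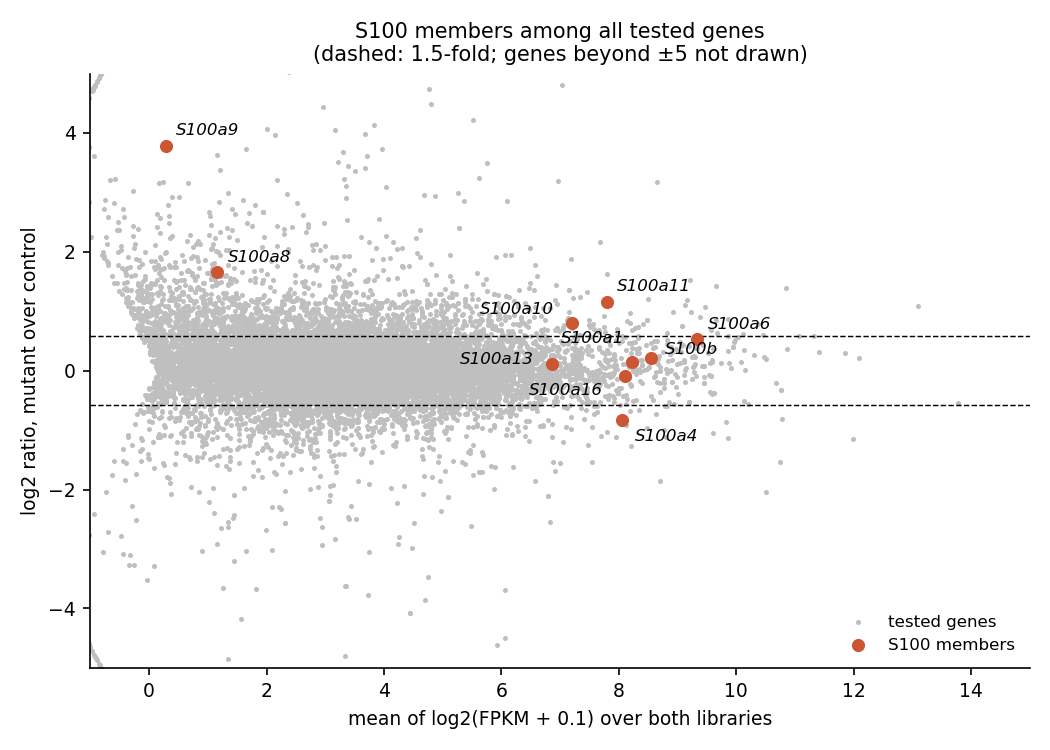
Log2 ratio of mutant over control against the mean of log2(FPKM + 0.1) over both libraries, for the tested genes (grey) and the 10 S100 members (orange), with dashed lines at a fold change of 1.5. *S100a8* and *S100a9* lie among the low genes, where ratios spread most, and *S100a11*, *S100a10* and *S100a4* lie past the lines among high genes.

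The share of genes past the cutoff differed with their level. Of the 635 tested genes above 100 FPKM in both libraries, 9.92% were higher and 5.67% lower past 1.5-fold, and of the 8 members in this class 2 were higher and 1 was lower. Of the 3664 tested genes below 5 FPKM in both, 24.4% were higher and 8.76% lower, and both members in that class were higher.

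*S100a11*, whose level chose the family, and *S100a10* are annexin-binding members and were the high genes past 1.5-fold higher. S100a11 docks onto annexin A1, and S100a10, unusual in the family because it no longer needs calcium, forms a tight complex with annexin A2 under the plasma membrane. *S100a11* was at 148 FPKM in control (interval 84.4 to 99.0) and 332 FPKM in mutant nerve (193 to 209), a log2 ratio of 1.16 or 2.24-fold. Of all tested genes 5.17% had a higher ratio. *S100a10* was at 111 FPKM in control (72.9 to 84.8) and 195 FPKM in mutant nerve (129.9 to 142), a log2 ratio of 0.81 or 1.75-fold, and 9.66% of tested genes had a higher ratio. For both genes the FPKM lay above its own interval in each library. The midpoints of the intervals, an alternative chosen after seeing the data, gave log2 ratios of 1.13 for *S100a11* and 0.78 for *S100a10*, so that both values remained past 1.5-fold.

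*S100a6*, or calcyclin, binds annexin A11 and the ubiquitin ligase adaptor CacyBP and is typical of dividing and fibroblastic cells. It was at 538 FPKM in control (526 to 559) and 775 FPKM in mutant nerve (758 to 807), a log2 ratio of 0.53 that stayed below the cutoff. In FPKM this was the widest gap among the members, and the intervals lay far apart.

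*S100a4*, also called metastasin or fibroblast-specific protein, binds non-muscle myosin heavy chain, encoded by *Myh9*. It was at 357 FPKM in control (342 to 375) and 200.1 FPKM in mutant nerve (190.4 to 211), a log2 ratio of −0.83 or 1.78-fold lower. Only 4.97% of tested genes had a lower ratio. The control row joins *S100a3* and *S100a4* under a common name, whereas the mutant table lists them apart, with 4.60 FPKM for *S100a3* (interval 3.64 to 5.55). When both genes were summed in the mutant as well, *S100a3* made up 2.25% of the sum and the log2 ratio was −0.80, still past 1.5-fold. *S100a6*, the nearest member on chromosome 3, with *S100a5* lying between, was on the other side of 0, except with all rows rescaled, where both were below it.

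*S100b*, the astrocyte and OL lineage member, differed little. It was at 347 FPKM in control (345 to 359) and 402 FPKM in mutant nerve (400.1 to 414), a log2 ratio of 0.21, and 35.6% of tested genes had a higher ratio. The markers of the cells that make it mostly went opposite ways. Of 7 astrocyte markers 6 were higher in the mutant and 1 of them past 1.5-fold (*Gja1*), with a median log2 ratio of 0.22 and summed levels of 5100 and 6027 FPKM. The mutant FPKM of *Gja1* (381) lay above its own interval (353 to 362), and the call was lost with interval midpoints (0.57). *Aqp4* was the lower marker (log2 ratio −0.29). Of 6 comparable OL markers all 6 were lower, 4 past 1.5-fold, with a median of −0.93 and summed levels of 25357 and 15262 FPKM. Of the 3 markers of OL precursors *Gpr17* was lower past 1.5-fold (235 and 156 FPKM), and the summed levels were 281 and 197 FPKM. *Pdgfra* was at 35.9 and 33.6 FPKM, but its mutant interval (32.0 to 161) contains its control interval (35.1 to 38.0), so it has no clear direction. None of these markers was at 0 in either library. In whole nerve, fewer cells of a type and less RNA per cell cannot be told apart, and the part of cell makeup in the S100 values was not tested.

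*S100a1*, *S100a13* and *S100a16* complete the high members. S100a1 is best known from heart and skeletal muscle, where it acts on calcium handling, and S100a13 takes part in the release of proteins that lack a signal peptide. *S100a13* was at 111 FPKM in control (104 to 118) and 120.3 FPKM in mutant nerve (115 to 127), with overlapping intervals and a log2 ratio of 0.11. *S100a16* was at 284 FPKM in control (277.1 to 295.2) and 267 FPKM in mutant nerve (262 to 276.8), a log2 ratio of −0.09. *S100a1* was at 283 FPKM in control (269.6 to 297) and 313 FPKM in mutant nerve, where its interval was 208 to 224. Its log2 ratio was 0.14 from the FPKM and −0.39 from the interval midpoints, so that the tables give no single direction for *S100a1*. *S100a1* and *S100a13* lie head to head, with RefSeq start sites 105 bases apart and promoter windows that share 204 bases (GRCm38.p6), and neither passed 1.5-fold by either measure.

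*S100a8* and *S100a9*, the calprotectin genes, were the 2 low members, and few fragments stand behind their values. *S100a8* was at 1.15 FPKM in control (0.185 to 1.57) and 3.86 FPKM in mutant nerve (1.34 to 3.19), a log2 ratio of 1.66. Its intervals overlapped, its mutant FPKM lay above its own interval, and the midpoints gave 1.28. *S100a9* was at 0.228 FPKM in control (0 to 0.798) and 4.42 FPKM in mutant nerve (3.24 to 5.69), a log2 ratio of 3.78. For *S100a9* these values correspond to 2 control and 56 mutant fragments if its row is 317 bases long. This length was inferred, as the shortest from 200 bases up at which the interval bounds lie within 0.02 of whole fragments. Closeness of the bounds to whole numbers was thus set by the search. The same search gave 392 bases for *S100a8*, where the FPKM equal 12.5 control and 60.4 mutant fragments, and no counts were read for it. Scaled for depth, the *S100a9* counts gave a ratio of 19.4. The counts rest on the inferred length, and their ratio compares these 2 libraries, not the genotypes. *S100a9* reached 1 FPKM only in the mutant, so its direction was fixed by the filter on low values. *S100a8* went from 6.37% to 23.1% of tested genes at or below its level, and *S100a9* from 1.35% to 26.6%, so that both stayed in the lower part of the range.

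Levels of blood cell markers are given beside this pair. Of the 10 neutrophil markers 9 were listed, and their summed level was 4.79 FPKM in control and 10.9 FPKM in mutant nerve. Most of this sum was *Lcn2* and *Cxcr2* in both libraries, and the cells that express these genes were not identified here. With no filter on low values all 9 had a higher value in the mutant, most of them below 1 FPKM. The direction counts of tested genes are no background for blood cell markers that were not tested. The mutant library was also the deeper one. Of the 2 that reached 1 FPKM in both libraries, *Lcn2* (1.39 and 4.86 FPKM) was higher past 1.5-fold and *Cxcr2* (3.05 and 3.21 FPKM) was not. *Ngp* (0.151 and 1.41 FPKM) reached it only in the mutant. The defining granule genes *Mpo* and *Elane*, and *Retnlg*, were at 0 in the control and at 0.0748, 0.0350 and 0.248 FPKM in the mutant. For *Mpo* and *Elane* the mutant values lie below that of 3 fragments on 1 kb (0.0751 FPKM), so they are near the floor. Of the 4 comparable red blood cell markers all 4 had a higher value, with summed levels of 74.3 and 175 FPKM, and the 2 that reached 1 FPKM in both libraries, *Hbb-b1* (43.8 and 104 FPKM) and *Hbb-b2* (29.9 and 69.0 FPKM), were past 1.5-fold. None of those 4 was at 0 in either library. Of 6 microglial markers 5 were higher, none past 1.5-fold, with summed levels of 165 and 208 FPKM and none at 0. The part of blood cells in the *S100a8* and *S100a9* values was not tested.

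Markers of the fibroblasts of the meninges moved beside the annexin-binding members. All 7 were higher in the mutant, 3 of them past 1.5-fold (*Dcn*, *Slc6a13* and *Ptgds*), with a median log2 ratio of 0.49 and none at 0. Their summed level was 7142 FPKM in control and 14295 FPKM in mutant nerve, most of it *Ptgds*, at 6009 and 12779.7 FPKM. *S100a6*, *S100a10* and *S100a11* were higher with these markers and *S100a4* was lower against them, and their part in the S100 values was not tested. Endothelial markers (2 of 5 higher, summed levels 112 and 99.8 FPKM) went both ways, with none at 0. Of 5 markers of pericytes and smooth muscle 4 were higher (summed levels 101 and 121 FPKM). Among them *Tagln* was listed at 0 in the control and at 35.3 FPKM in the mutant, and without it the sum was lower in the mutant (101 and 86.2 FPKM). The 3 Schwann cell markers summed to 2.69 and 1.18 FPKM and the 3 neuronal markers to 7.64 and 15.5 FPKM, with none at 0.

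The annexins, to which several S100 proteins bind, were higher in the mutant as far as they were tested. Of 12 annexin genes 9 were tested, all 9 had a higher value, and the median log2 ratio was 0.56, or −0.11 with all rows rescaled. Past 1.5-fold were 4 of them, where 15.4% of all tested genes were higher past it. The list was chosen with earlier results of these data known, so nothing is read from this share. *Anxa2*, the partner of S100a10, was at 203 FPKM in control and 309 FPKM in mutant nerve (log2 ratio 0.60). Its mutant FPKM lay above its own interval (259.7 to 272), and the call was lost with interval midpoints (0.38) and with centring on the median of all genes (0.56). *Anxa3* was at 42.5 and 75.6 FPKM (0.83), *Anxa4* at 14.5 and 21.9 FPKM (0.60) and *Anxa8* at 3.37 and 5.62 FPKM (0.72). *Anxa1*, the partner of S100a11, was at 24.8 and 35.2 FPKM (0.50), and *Anxa11*, which S100a6 binds, at 10.9 and 15.2 FPKM (0.48), both below the cutoff. Centring left 2 annexins past 1.5-fold, *Anxa3* and *Anxa8*, and interval midpoints gave a median of 0.40.

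The remaining partners and receptors lay closer to the median of all genes. Of 7 comparable genes 5 were higher, with a median log2 ratio of 0.18, or −0.44 with all rows rescaled. *Bsg* (480 and 393 FPKM, log2 ratio −0.29) and *Cacybp* (16.6 and 14.4 FPKM, −0.20) were lower. The summed level of the list was 586 FPKM in control and 511 FPKM in mutant nerve, most of it *Bsg*. *Cd36*, a scavenger receptor that binds S100a8 and S100a9, was at 0.874 FPKM in control and 1.39 FPKM in mutant nerve (log2 ratio 0.61) and was the only one past 1.5-fold. It reached 1 FPKM only in the mutant library, and the call was lost with a pseudocount of 1, under each of the 4 scalings, at a minimum of 5 FPKM and at a fold of 2. *Ager* has no ratio of its own, since the control row joins it with *Pbx2* (14.3 FPKM for the pair) and the mutant table lists *Ager* alone (5.32 FPKM).

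**Figure D3:**
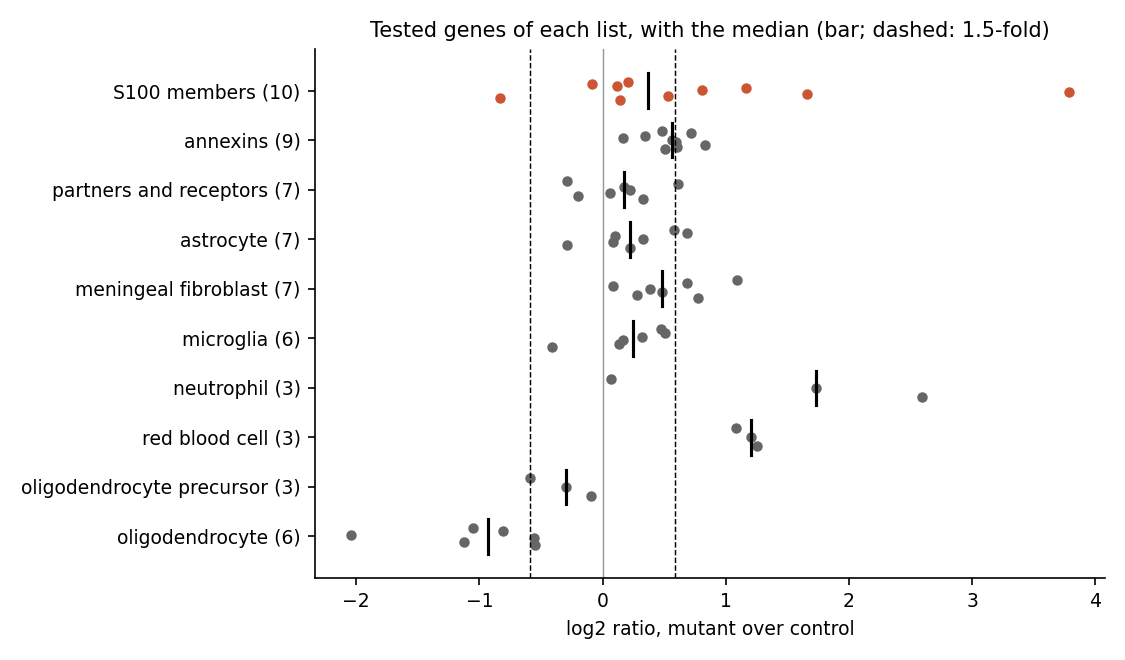
Log2 ratio of mutant over control for the tested genes of each list (dots; number of genes in brackets), with the median as a bar and dashed lines at a fold change of 1.5. The members run from −0.83 to 3.78 with a median of 0.37, the 9 annexins are all above 0 in the FPKM as deposited (with all rows rescaled their median is −0.11), and the 6 OL markers are all below 0.

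On the genome, 9 of the 10 members lie on chromosome 3 and *S100b* alone on chromosome 10 (mm9, from 75716581 to 75724064). Of the 9, 7 sit in a run from *S100a1* to *S100a9* (mm9, chromosome 3 from 90314956 to 90499643, or 185 kb), in which all 12 named symbols are S100 genes. *S100a11* and *S100a10* sit as a pair of their own within 44.1 kb (from 93324418 to 93368567), 2825 kb further on, with no other named gene between them. The ratios differed along the run. *S100a1*, *S100a13* and *S100a16* at its start and *S100a6* further on stayed within 1.5-fold, *S100a4* was lower past it, and *S100a8* and *S100a9* at its end had the highest ratios.

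**Figure D4:**
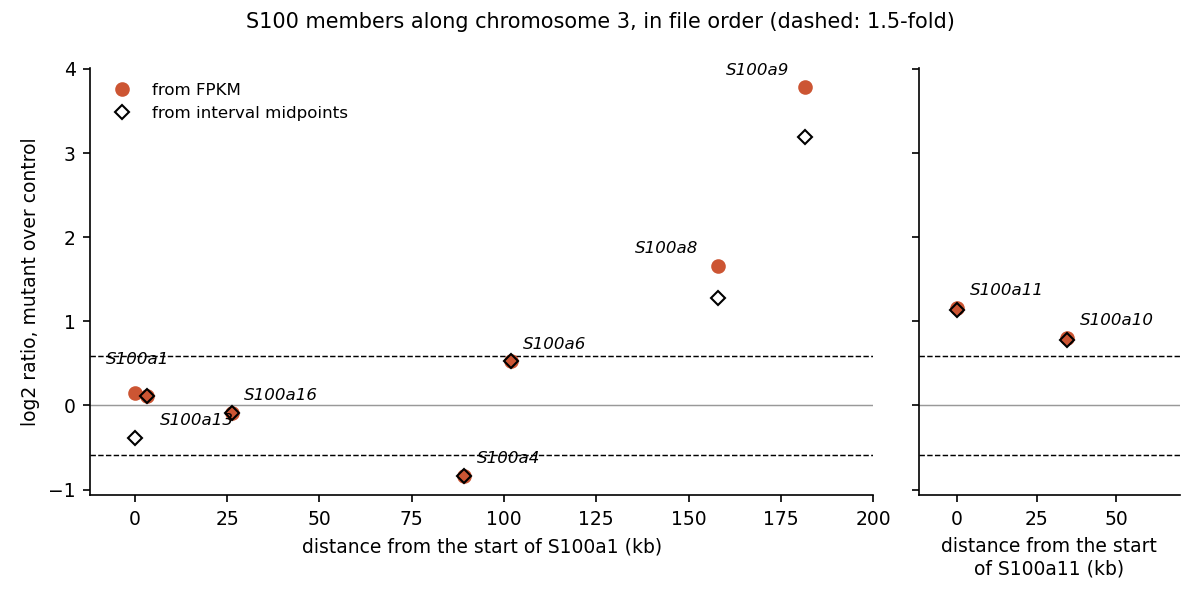
Log2 ratio of mutant over control for the 9 members on chromosome 3 against their distance (kb) from the start of *S100a1* (left) or of *S100a11* (right), from the FPKM (orange dots) and from the interval midpoints (open diamonds), with dashed lines at a fold change of 1.5. Both measures nearly coincide except for *S100a1* (0.14 and −0.39), *S100a8* (1.66 and 1.28) and *S100a9* (3.78 and 3.19).

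The rest of the run and the further S100 genes on other chromosomes were low or at 0. Of 8 further S100 genes sought by name 6 were listed, and 5 had comparable rows. *S100a7a*, on the run, was at 3.28 FPKM in control and 1.77 FPKM in mutant nerve, a log2 ratio of −0.85 past 1.5-fold. *S100a14* was at 1.05 and 0.745 FPKM (log2 ratio −0.45). *S100a5*, on the run, and *S100z*, on chromosome 13, were listed at 0 in both libraries. *S100g*, on chromosome X, was at 0 in control and 0.0907 FPKM in mutant nerve. *S100a2*, which also lies on the run, was at 2.23 FPKM in control and 1.54 FPKM in mutant nerve, with intervals that both start at 0.

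The ratios were recomputed under up to 14 other settings. Several of these change only which genes or calls are kept and cannot alter a member's ratio. They are the filters on low values, the fold of 2, any status, non-overlapping intervals and identically merged names. Taking the highest row also left every ratio as it was. Agreement under these settings was thus fixed in advance. Ratios were held against 1.5-fold whatever cutoff or interval rule a setting used. The ratio of *S100a4* lay beyond 1.5-fold in each of the 14 that gave one, and those of *S100a10* and *S100a11* in 13 of 14, all but the rescaling of all rows, where they were at 0.14 and 0.49. The ratios of *S100a8* and *S100a9* lay beyond 1.5-fold in each of the 13 settings that kept these genes. A minimum of 5 FPKM dropped both, and *S100a9* passed the filter of 1 FPKM only through its mutant value. *S100a9* ran from 2.14 with a pseudocount of 1 to 4.22 with one of 0.01.

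**Figure D5:**
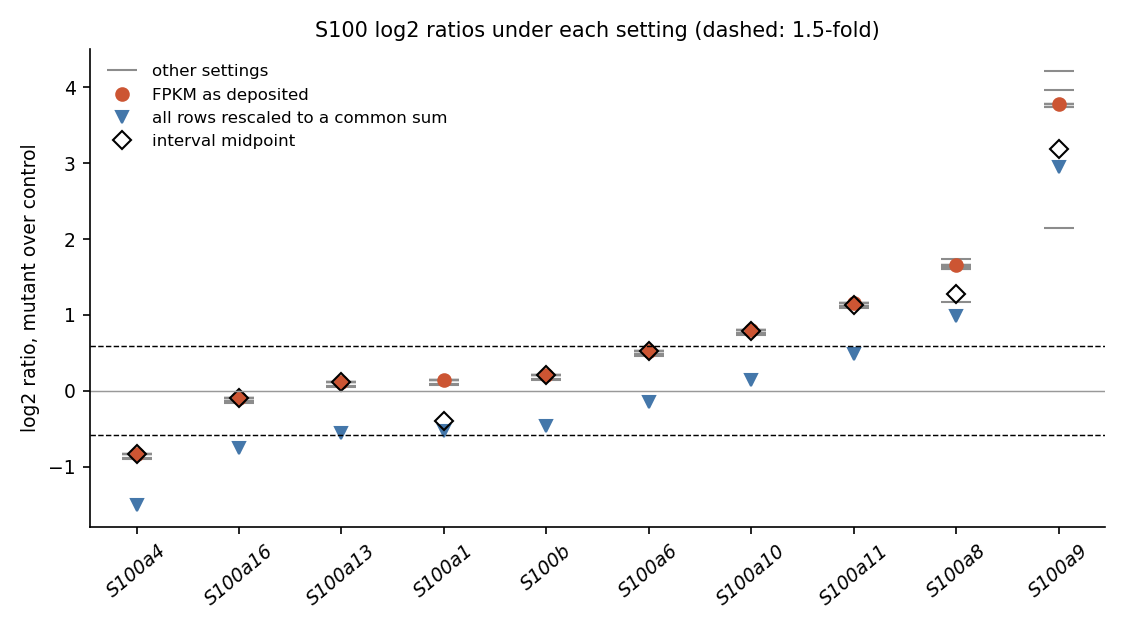
Log2 ratio of mutant over control for each member under each setting, with the FPKM as deposited (orange dots), all rows rescaled to a common sum (blue triangles), interval midpoints (open diamonds) and the other settings (grey dashes), and dashed lines at a fold change of 1.5. The triangles lie lowest for 9 of the members, *S100a9* being the exception.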

How the data were processed

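RNA was isolated from optic nerves at P12 and sequenced on 1 library per genotype. According to the submitters' processing notes TopHat, Cufflinks and the mm9 genome were used; versions and annotation are not given in the sources used here. The deposited tables hold FPKM, computed by the authors with Cufflinks, with interval bounds and a status. Rows were split by comma-merged names and summed per symbol. Genes with a status of OK in both libraries and at least 1 FPKM in at least 1 were tested against a cutoff of 1.5-fold on log2(FPKM + 0.1). Depth was read from bounds of unnamed rows shorter than 100 bases, which are whole multiples of 1 fragment. No p-value was computed, since there was 1 library per group. Members and lists were chosen with earlier results of these data known. Named were all members, list genes past 1.5-fold, Anxa1, Anxa2, Anxa11, Ager, genes within the S100 run and Tcf7l2. Markers were named where they touch a member. Gfap, Mag and Snap25 were added to describe the tissue, and Bsg and Cacybp as the lower partner genes. Alternatives were pseudocounts of 1 and 0.01, no filter or 5 FPKM, 4 scalings, a fold of 2, the highest row, any status and non-overlapping intervals. Interval midpoints, *S100a3* and *S100a4* summed and only identically merged names were chosen after seeing the data. The counting code was tried on simulated data with folds far past the cutoff, which bears on the code and not on these libraries. The tools were matplotlib 3.10.9, scipy 1.17.1, pandas 2.3.3, numpy 2.4.6 and Python 3.11.15.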

Additional observations from a re-analysis of the deposited data

How the results depend on the processing

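When 5 FPKM were required in either library, *S100a8* and *S100a9* dropped out, leaving 2 members past 1.5-fold higher, a median of 0.18 and 1290 tested genes higher. Rescaling all rows to a sum of 1000000 gave 2 members higher and 2 lower, 640 tested genes higher and 7398 lower, and a median over the members of −0.30, which lay 0.30 above that of all tested genes. At a fold of 2, 3 members were higher and 0 lower, and 975 tested genes were higher and 522 lower. Keeping only symbols merged alike in both libraries, which removes *S100a4*, left 0 members lower, a median of 0.53 and 1104 of 13816 genes lower. Requiring intervals that do not overlap left 3 members and 1930 tested genes higher and 1 member and 1054 genes lower. Under the other settings run the counts of members past 1.5-fold stayed at 4 higher and 1 lower. For *S100a1* the sign also changed with interval midpoints. No paired analysis was possible because each group has 1 library, and no library could be left out. Depth limits *S100a8* and *S100a9* most, whose control values rest on few fragments.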

Other observations

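*S100pbp*, which encodes a protein that binds S100P, was at 7.93 FPKM in control and 11.3 FPKM in mutant nerve, a log2 ratio of 0.51. It is not an S100 gene and was chosen after its values were seen.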
